A study of Mus musculus with 41 samples.

Results

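Hindbrain neurospheres that carried the K27M form of histone H3.3 were compared with hindbrain neurospheres that carried the wild-type form. The 6 libraries were chosen by their labels, 3 K27M and 3 WT-Tag, out of 41 RNA-seq libraries in all. Neurospheres grow as free-floating balls of neural stem cells and progenitors, here started from embryos at E15.5 and kept in medium for neural precursors. Both groups carried Nestin-cre and 1 knock-in allele of H3f3a, a gene for H3.3, beside 1 unchanged allele. In H3f3aLSL-K27M-Tag/+ cultures Cre switched on tagged H3.3 in which lysine 27 is replaced by methionine, and in H3f3aLSL-WT-Tag/+ cultures it switched on tagged wild-type H3.3. Nestin drives Cre in neural progenitors, so the progeny of these cells carry the switched allele. Each culture belonged to experiment 1, 2 or 3, and each culture letter also had a forebrain culture, which gives 6 further libraries that were fitted with these. All cultures were labelled female except the WT-Tag culture of experiment 3, which was labelled male. Whether the 3 cultures of a group came from separate embryos is not given in the labels beyond the experiment number and the sex, so p-values measure the spread between these cultures.

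H3.3 is a histone that is laid down outside replication, and lysine 27 of its tail can carry methyl groups placed by Polycomb repressive complex 2 (PRC2), which mark silenced genes. The K27M form is known from diffuse midline gliomas of children, which arise in the brainstem and other midline regions, and it lowers this methylation over much of the genome. Genes under Polycomb control in neural progenitors include HOX genes, which give hindbrain segments their identity, and many genes of fetal growth.

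The libraries of the 2 groups differed in background reads. These were read from 1734 entries of olfactory, vomeronasal and bitter taste receptors, keratin-associated proteins and defensins, families known from sensory neurons of the nose, taste cells, hair and immune or gut cells rather than from neural progenitors. Of these entries 144, 238 and 142 lay above 0 in K27M libraries 1, 2 and 3, and 316, 791 and 585 in WT-Tag libraries 1, 2 and 3. The groups did not overlap. One entry ran the other way: Olfr287, an olfactory receptor gene chosen after its values were seen, stood at 5.02, 4.02 and 3.23 FPKM in K27M libraries and 3.11, 1.88 and 1.29 FPKM in WT-Tag libraries. It made up 39.2, 27.8 and 26.6% of the summed FPKM of these entries in K27M libraries and 18.8, 5.17 and 5.20% in WT-Tag libraries. Without it the sum was 7.77, 10.4 and 8.90 FPKM in K27M libraries and 13.4, 34.5 and 23.5 FPKM in WT-Tag libraries. Depth relative to WT-Tag library 1 was 0.836, 1.02 and 0.887 in K27M libraries and 1, 1.13 and 1.29 in WT-Tag libraries, and the total depth is unknown. WT-Tag library 2 also stood apart in its mitochondrial ribosomal RNA mt-Rnr2, at 36798 FPKM (fragments per kilobase of transcript, scaled by mapped fragments), against 10448 to 18243 FPKM in the other 5 hindbrain libraries. WT-Tag library 1 was the WT-Tag library nearest to the K27M values for 905 of 1111 genes called higher and 484 of 676 called lower. The sex-linked transcripts matched the labels in all 6 libraries: Xist, the RNA that silences an X chromosome in females, stood at 31.8, 35.3 and 70.4 FPKM in K27M libraries and at 32.7, 58.2 and 0.018 FPKM in WT-Tag libraries. The Y-linked gene Ddx3y stood at 0, 0 and 0.007 FPKM in K27M libraries and at 0, 0 and 22.8 FPKM in WT-Tag libraries, Eif2s3y at 18.5, Kdm5d at 9.59 and Uty at 8.84 FPKM in WT-Tag library 3. Values of a group are given in the order of experiments 1, 2 and 3.

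**Figure D1:**
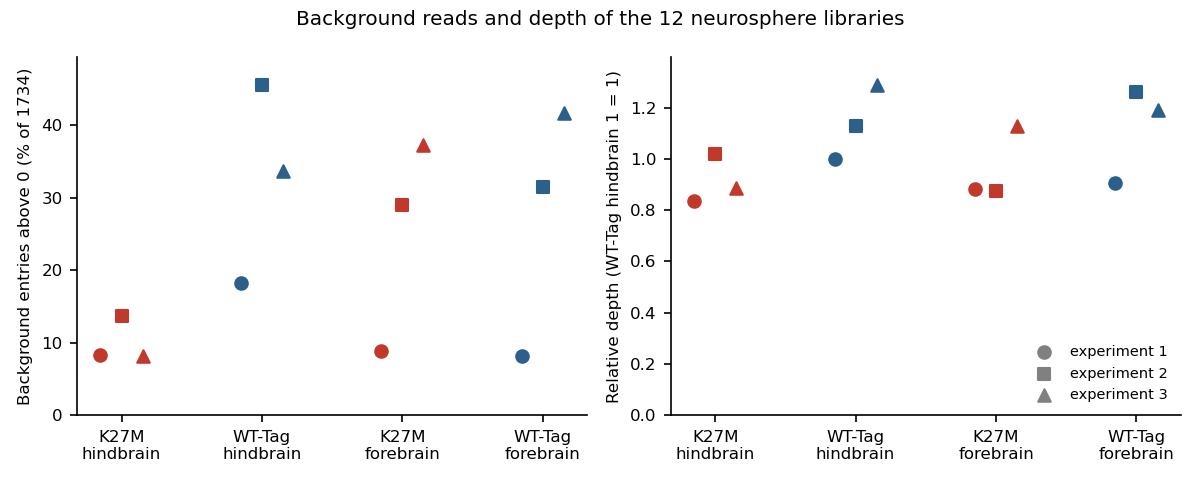
Background entries above 0, as a percentage of 1734 entries (left), and depth relative to WT-Tag hindbrain library 1 (right), for the 12 neurosphere libraries, 1 point per library and 1 marker shape per experiment. K27M hindbrain libraries had 8.30, 13.7 and 8.19% of these entries above 0, and WT-Tag hindbrain libraries 18.2, 45.6 and 33.7%.

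H3f3a itself stood at 115, 115 and 112 FPKM in K27M libraries and at 112, 98.8 and 107 FPKM in WT-Tag libraries. Mutant and wild-type transcripts add up in this value, which therefore leaves the genotype unchecked. The log2 change of H3f3a was 0.11 ± 0.11 (SE; limma adjusted p = 0.527). H3f3b, which encodes the same protein, had a log2 change of 0.47 ± 0.18 (adjusted p = 0.106). The forebrain factor Lhx2 matched the hindbrain label. It stood at 0.016 to 0.03 FPKM in K27M and 0.041 to 0.107 FPKM in WT-Tag hindbrain libraries. Its forebrain means were 9.11 FPKM in K27M and 6.77 FPKM in WT-Tag cultures. Otx1, also on the forebrain list, did not follow the label in K27M cultures, with means of 1.77 FPKM in hindbrain and 1.34 FPKM in forebrain. In WT-Tag cultures its means were 0.479 FPKM in hindbrain and 1.11 FPKM in forebrain. The stem cell factor Sox2 was present in all 6, at 90.3, 90.9 and 108 FPKM in K27M libraries and 96.2, 86.8 and 108 FPKM in WT-Tag libraries.

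Of 13190 genes tested, 1787 (13.5%) had a limma adjusted p under 0.05, which is what "called" means here. There were 1111 genes higher (8.42%) and 676 lower (5.13%) in K27M. Counts of called genes in the lists below are to be set beside these shares, and a count near them is nothing particular to its list. A change of at least 2-fold was seen in 154 of the higher genes (1.17% of genes tested) and 148 of the lower ones (1.12%). The values of the groups did not overlap for 3695 genes (28%), among them 1740 of the 1787 called. Changes are differences on the log2(FPKM + 1) scale, K27M minus WT-Tag, and at low FPKM they are smaller than the true change; their median over all genes tested was 0.09. The split depended on scaling: with libraries rescaled by their median ratio 985 genes were higher and 1030 lower. Under that rescaling 48.9% of called genes were higher, against 62.2% with FPKM as deposited. The count depended more on the background measure and on single libraries. With the summed FPKM of the background families as a covariate, Olfr287 included, 134 genes were called, 41 higher and 93 lower, and with the number of entries above 0, where Olfr287 counts as 1 entry, 234 were called. Leaving out K27M library 1, 2 or 3 gave 569, 1032 and 1105 calls, and leaving out WT-Tag library 1, 2 or 3 gave 4220, 571 and 703. In the 6 hindbrain libraries fitted alone 286 genes were called. Called under every alternative that could be run for the gene were 55 genes (0.417%), 20 higher and 35 lower.

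Lin28b and Igf2bp1, which encode RNA-binding proteins of fetal tissues, were among the genes with the smallest p. Lin28b, which blocks the maturation of let-7 microRNAs, stood at 2.09, 2.26 and 2.41 FPKM in K27M libraries and at 0.052, 0.037 and 0.02 FPKM in WT-Tag libraries. Igf2bp1, a stabiliser of fetal mRNAs, stood at 2.39, 2.64 and 3.07 FPKM in K27M libraries and 0.012, 0.032 and 0.016 FPKM in WT-Tag libraries. Both were near 0 in all 3 WT-Tag libraries and above 2 FPKM in all 3 K27M libraries. Their log2 changes were 1.65 ± 0.11 (adjusted p = 5.83e-05) for Lin28b and 1.86 ± 0.11 (4.42e-05) for Igf2bp1. Both were called under each of the 17 alternatives run for them. Of the relatives, Igf2bp2 stood at 5.33, 5.38 and 5.42 FPKM in K27M libraries and 0.696, 2.25 and 3.25 FPKM in WT-Tag libraries. Igf2bp3 stood at 27.6, 27.99 and 32.9 FPKM in K27M libraries and 19.5, 12.9 and 13.5 FPKM in WT-Tag libraries. Igf2bp2 rose by 1.16 ± 0.25 (0.0146) and Igf2bp3 by 0.92 ± 0.16 (0.00521), each with no overlap between groups. With the background covariate, 3 of the 7 tested genes of this list stayed called, Lin28b, Igf2bp1 and Igf2bp2, against 5 without it. Hmga2, a chromatin protein and let-7 target, overlapped between groups, with 1.61, 1.82 and 1.49 FPKM in K27M libraries and 0.525, 1.97 and 1.91 FPKM in WT-Tag libraries (log2 change 0.16 ± 0.23, adjusted p = 0.675). The list of 11 genes had 7 tested, 5 higher and 0 lower, with a median log2 change of 1.16. The IGF2 gene and Lin28a were too low to be tested, at no more than 0.62 and 0.022 FPKM in any of the 6 libraries.

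**Figure D2:**
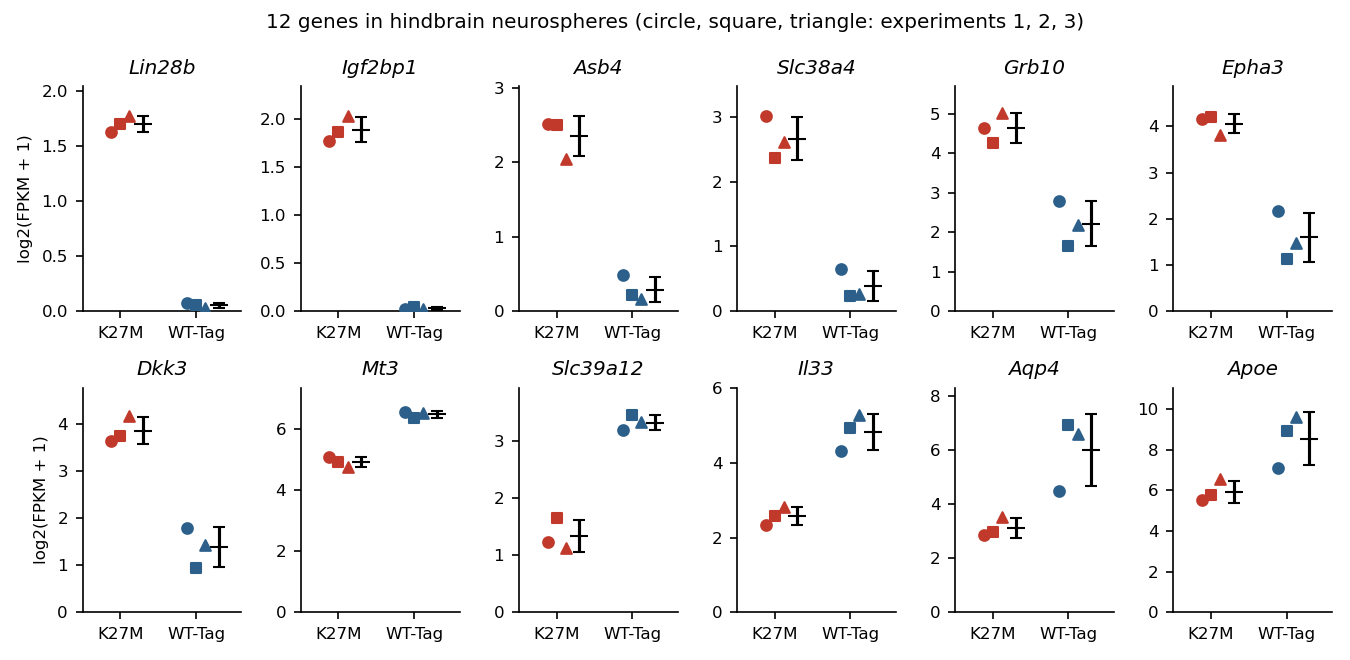
Expression of 12 genes in hindbrain neurospheres as log2(FPKM + 1), 1 point per library (K27M left, WT-Tag right) with the group mean ± SD as bars, n = 3 each. The groups do not overlap in any of the 12 panels. WT-Tag library 1 (circle) is the WT-Tag library nearest to the K27M values in every panel except Igf2bp1 and Mt3.

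Imprinted genes, which are expressed from 1 parental copy and of which many control fetal growth, rose in 12 of 23 tested and fell in 0, with a median log2 change of 0.44. Grb10, an adaptor protein that dampens signals of the insulin and IGF receptors, stood at 23.9, 18.1 and 31.4 FPKM in K27M libraries and 5.95, 2.16 and 3.51 FPKM in WT-Tag libraries. Slc38a4, an amino acid transporter, stood at 7.15, 4.17 and 5.12 FPKM in K27M libraries and 0.568, 0.18 and 0.198 FPKM in WT-Tag libraries. Asb4, the substrate-binding part of a ubiquitin ligase, stood at 4.71, 4.69 and 3.12 FPKM in K27M libraries and 0.396, 0.165 and 0.116 FPKM in WT-Tag libraries. For each of these 3 genes the lowest K27M library lay above the highest WT-Tag library. Their log2 changes were 2.43 ± 0.26 (adjusted p = 0.000585), 2.29 ± 0.17 (7.11e-05) and 2.07 ± 0.15 (6.17e-05), and each stayed called under every alternative run for it. These were the 3 imprinted genes still called with the background covariate; without K27M library 1 or WT-Tag library 2, 7 were called. Peg10, a gene derived from a retrotransposon, stood at 42.8, 45.1 and 39.3 FPKM in K27M libraries and 25.6, 9.76 and 6.24 FPKM in WT-Tag libraries (1.76 ± 0.35, 0.0105). The long RNA H19 rose by 1.55 ± 0.30 (0.0091), the growth inhibitor Cdkn1c by 1.19 ± 0.31 (0.0322) and Igf2r, the receptor that clears IGF2, by 1.00 ± 0.18 (0.00723). The other 5 imprinted genes that rose were Peg12 (0.94), Zdbf2 (0.82), Plagl1 (0.58), Mkrn3 (0.44) and Sgce (0.38).

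Astrocyte genes fell in 13 of 17 tested and rose in 0, with a median log2 change of −1.22. Aqp4, the water channel of astrocyte endfeet, stood at 6.23, 6.85 and 10.5 FPKM in K27M libraries and 21.7, 123 and 95.8 FPKM in WT-Tag libraries. Apoe, a lipid carrier of astrocytes outside that list, stood at 44.2, 53.7 and 91.9 FPKM in K27M libraries and 135, 476 and 772 FPKM in WT-Tag libraries. For both WT-Tag library 1 was the lowest WT-Tag library and still lay above all K27M libraries. Log2 changes were −2.90 ± 0.57 (adjusted p = 0.00991) for Aqp4 and −2.59 ± 0.57 (0.0149) for Apoe. With the background covariate 5 of the 17 astrocyte genes stayed called, among them Slc39a12, Slc4a4, Clu and Mlc1, and the adjusted p of Aqp4 was 0.216 and that of Apoe 0.285. The glutamate transporters Slc1a3 and Slc1a2 fell by 1.02 ± 0.16 (0.00419) and 1.46 ± 0.26 (0.00665), and the bicarbonate transporter Slc4a4 fell by 1.22 ± 0.15 (0.00104). The glycolytic enzyme Aldoc fell by 2.18, the calcium-binding protein S100b by 1.91, angiotensinogen (Agt) by 1.45, the gap junction protein Gja1 by 1.21, the receptor Gpr37l1 by 1.10, the secreted chaperone Clu by 0.90 and Mlc1 by 0.43. Gfap, the intermediate filament of mature astrocytes, did not pass the test, at 0.092, 0.129 and 0.173 FPKM in K27M libraries and 0.703, 9.69 and 9.47 FPKM in WT-Tag libraries (adjusted p = 0.0707). In bulk cultures fewer cells of a type and less RNA per cell cannot be told apart.

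Of 7 metallothionein and zinc transporter genes tested, 3 fell and 0 rose. Mt3, the metallothionein of brain, stood at 32.9, 29.3 and 26.01 FPKM in K27M libraries and 94.5, 81.3 and 91.5 FPKM in WT-Tag libraries. Slc39a12, a zinc importer of astrocytes, stood at 1.35, 2.16 and 1.19 FPKM in K27M libraries and 8.12, 10.01 and 9.09 FPKM in WT-Tag libraries. The 3 WT-Tag libraries lay close together for both genes, library 1 included. Mt3 was 3.03-fold lower by group means (log2 change −1.57 ± 0.11, adjusted p = 5.83e-05) and Slc39a12 5.80-fold lower (−1.99 ± 0.15, 7.11e-05), and both were called under all 18 alternatives. The zinc or manganese exporter Slc30a10 fell by 1.16 ± 0.28 (0.0209; 0.316 with the background covariate). The metallothioneins Mt1 and Mt2, which most tissues express, overlapped between groups: Mt1 stood at 404, 333 and 338 FPKM in K27M libraries and 395, 309 and 293 FPKM in WT-Tag libraries, with a log2 change of 0.12 ± 0.18 (0.700), and Mt2 had a change of −0.05 ± 0.27 (0.927).

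Among oligodendrocyte precursor genes 5 of 13 tested fell and 0 rose (median −0.61), and among genes of mature, myelin-forming cells 4 of 9 fell and 0 rose (median −1.82). These counts changed when a library was left out: without K27M library 1 or 2 or WT-Tag library 2 or 3, 1 precursor gene was called, and 2 without K27M library 3. Of the myelin genes 9 were called without WT-Tag library 1, and 1 without any one of the other 5 libraries. In these fits the list medians ran from −0.61 to −0.47 for precursor genes and from −2.41 to −1.52 for myelin genes. The receptor Gpr17, which marks precursors about to differentiate, stood at 3.60, 3.11 and 2.17 FPKM in K27M libraries and 9.92, 16.9 and 37.9 FPKM in WT-Tag libraries (log2 change −2.33 ± 0.58, adjusted p = 0.0245). Bcas1, a gene of early myelinating cells, stood at 4.33, 5.03 and 3.19 FPKM in K27M libraries and 9.15, 29.02 and 30.3 FPKM in WT-Tag libraries (−2.05 ± 0.58, 0.0405). WT-Tag library 1 was again the lowest of its group for both. Lhfpl3 fell by 2.06, C1ql1 by 1.27, the proteoglycan Bcan by 0.73 and the factor Nkx2-2 by 0.61, and of the myelin list Cldn11 fell by 1.97 and Aspa by 0.95. Mbp, a myelin protein, did not pass (adjusted p = 0.0814), at 0.714, 1.81 and 1.15 FPKM in K27M libraries and 2.46, 10.8 and 16.9 FPKM in WT-Tag libraries. With the background covariate 1 precursor gene (Nkx2-2) and 0 myelin genes stayed called, and the list medians were −0.42 and −0.78. The lineage factor Olig2 overlapped between groups, at 148, 132 and 136 FPKM in K27M libraries and 159, 94.8 and 117 FPKM in WT-Tag libraries (0.20 ± 0.20, 0.531).

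Stem and progenitor genes went both ways, with 3 of 18 higher and 3 lower. Vim, an intermediate filament of progenitors, stood at 991, 951 and 916 FPKM in K27M libraries and 625, 328 and 372 FPKM in WT-Tag libraries (log2 change 1.16 ± 0.19, adjusted p = 0.00518). Nes, the filament whose promoter drives Cre here, rose by 0.89 ± 0.26 (0.0474) and the RNA-binding protein Msi2 by 0.44 ± 0.08 (0.00665). Fabp7, the lipid-binding protein of radial glia, stood at 780, 939 and 826 FPKM in K27M libraries and 1272, 1630 and 1461 FPKM in WT-Tag libraries (−0.77 ± 0.15, 0.00813). Slc1a3, named above, and the membrane protein Prom1 (−0.35 ± 0.10, 0.0435; 0.0501 with the experiment as a block) were the others that fell. None of these 6 stayed called with the background covariate, where adjusted p ran upward from 0.0512 for Msi2, and without WT-Tag library 1 the list had 7 higher and 4 lower. Markers of endothelium and red blood cells were low. The 13 endothelial genes summed to 1.30 to 2.09 FPKM in K27M and 1.02 to 1.13 FPKM in WT-Tag libraries, and the 8 genes of red blood cells to 0.125 to 0.244 FPKM in K27M and 0.146 to 0.29 FPKM in WT-Tag libraries. The 16 genes of microglia and macrophages summed to 17.2, 13.8 and 21.3 FPKM in K27M libraries and 16.7, 16.5 and 15.8 FPKM in WT-Tag libraries. Of these genes 2 were tested and 0 called. Aif1 and Cx3cr1 of that list were at or near 0, with no value above 0.074 FPKM. Pericyte and fibroblast genes summed to 31.3, 25.8 and 27.4 FPKM in K27M libraries and 35.1, 10.02 and 9.60 FPKM in WT-Tag libraries, so WT-Tag library 1 sat with the K27M libraries there. Ependymal and choroid plexus genes summed to 8.59, 8.63 and 13.3 FPKM in K27M libraries and 10.8, 26.8 and 23.5 FPKM in WT-Tag libraries, and their part in the results was not tested. Of 5 neuronal genes tested, Elavl3 fell by 0.64 ± 0.17 (0.0302) and 0 rose.

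The 12 largest rises held, beside Grb10, Slc38a4 and Asb4, 9 further genes. Epha3, an ephrin receptor that guides axons and cell contacts, stood at 16.9, 17.4 and 13.1 FPKM in K27M libraries and 3.49, 1.19 and 1.79 FPKM in WT-Tag libraries. Dkk3, a secreted relative of Wnt inhibitors, stood at 11.5, 12.4 and 17.1 FPKM in K27M libraries and 2.48, 0.927 and 1.68 FPKM in WT-Tag libraries. Fndc3c1, a fibronectin type III domain gene, stood at 6.60, 6.39 and 3.71 FPKM in K27M libraries and 0.079, 0.103 and 0.083 FPKM in WT-Tag libraries. None of the 3 overlapped between groups. Log2 changes were 2.47 ± 0.22 (adjusted p = 0.000254) for Epha3, 2.47 ± 0.21 (0.000124) for Dkk3 and 2.56 ± 0.34 (0.00175) for Fndc3c1, all called under each of 18 alternatives. The collagen Col12a1 rose by 1.98 ± 0.21 (0.000623) and the endoplasmic reticulum protein Rcn3 by 2.04 ± 0.22 (0.000728), likewise under each. The surface glycoprotein Cd24a rose by 1.95 ± 0.22 (0.000792) and was called under 17 of 18. The matrix protein Fbln2 stood at 252, 192 and 290 FPKM in K27M libraries and 147, 31.3 and 35.4 FPKM in WT-Tag libraries. Fbln2 rose by 2.12 ± 0.48 (0.0168), the developmental factor Mab21l2 by 2.03 ± 0.46 (0.0179) and the transcription factor Ebf1 by 1.99 ± 0.39 (0.0101). With the background covariate these 3 lost their calls (0.348, 0.319 and 0.140). Their log2 changes there were 1.00, 1.32 and 1.94. For all 3, WT-Tag library 1 lay nearest to the K27M libraries.

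The 12 largest falls included, beside Aqp4, Apoe, Aldoc and Gpr17, 6 genes not described so far. Gria4, an AMPA-type glutamate receptor subunit, stood at 1.20, 1.47 and 3.66 FPKM in K27M libraries and 8.47, 20.2 and 27.3 FPKM in WT-Tag libraries (log2 change −2.60 ± 0.36, adjusted p = 0.00227). Il33, a nuclear cytokine of glia, stood at 4.08, 4.99 and 6.01 FPKM in K27M libraries and 18.8, 29.2 and 37.3 FPKM in WT-Tag libraries (−2.25 ± 0.20, 0.000254). Of the 6, Il33 was called under all 18 alternatives, and Gria4 lost its call with the background covariate (0.0685). The retinaldehyde dehydrogenase Aldh1a1 fell by 2.22 ± 0.24 (0.000728), the sialyltransferase St6gal2 by 2.54 ± 0.41 (0.00471), Scrg1 by 2.14 ± 0.51 (0.0209) and Ndrg2 by 2.09 ± 0.62 (0.0471). Ndrg2 overlapped between groups, with K27M library 3 at 36.7 FPKM above WT-Tag library 1 at 29.1 FPKM. It was called under 7 of 18 alternatives. St6gal2, Scrg1 and Ndrg2 lost the call with the background covariate (0.117, 0.353 and 0.536).

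Hypoxia genes, which the HIF factors switch on when oxygen is low, rose in 8 of 14 tested and fell in 0 (median log2 change 0.85). The HIF core site is ACGTG on either strand. Upstream windows of 3 of the genes that rose are shown because they hold it; each is the 250 bases before the annotated start, from RefSeq on build GRCm38.p6, 5′ to 3′ on the gene's strand, with ACGTG or its reverse complement CACGT in capitals. The deposited values name build mm9, and these sequences were matched by gene symbol.

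Egln3, chr12:54203875-54204124, minus strand: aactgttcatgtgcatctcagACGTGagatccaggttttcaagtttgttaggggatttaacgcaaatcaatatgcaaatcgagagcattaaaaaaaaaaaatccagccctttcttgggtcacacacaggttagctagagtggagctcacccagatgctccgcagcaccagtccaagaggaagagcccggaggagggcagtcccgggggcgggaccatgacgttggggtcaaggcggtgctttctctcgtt

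Ankrd37, chr8:45999851-46000100, minus strand: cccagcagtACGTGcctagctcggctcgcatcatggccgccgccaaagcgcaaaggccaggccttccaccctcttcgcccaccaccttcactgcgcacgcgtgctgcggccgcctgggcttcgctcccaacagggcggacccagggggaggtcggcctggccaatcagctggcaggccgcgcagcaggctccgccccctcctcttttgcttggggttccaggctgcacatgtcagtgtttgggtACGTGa

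Ldha, chr7:46845554-46845803, plus strand: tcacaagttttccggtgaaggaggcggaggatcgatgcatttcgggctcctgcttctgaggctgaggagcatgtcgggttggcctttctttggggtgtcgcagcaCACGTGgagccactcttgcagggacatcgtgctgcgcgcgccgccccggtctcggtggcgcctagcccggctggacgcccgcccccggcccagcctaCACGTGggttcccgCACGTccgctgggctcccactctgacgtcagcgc

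Egln3, the oxygen-dependent hydroxylase that marks HIF for decay, stood at 20.0, 12.1 and 12.3 FPKM in K27M libraries and 6.43, 5.56 and 7.004 FPKM in WT-Tag libraries (log2 change 1.08 ± 0.17, adjusted p = 0.00479). Ankrd37, an ankyrin repeat gene, stood at 17.3, 8.08 and 11.9 FPKM in K27M libraries and 3.996, 2.20 and 5.27 FPKM in WT-Tag libraries (1.47 ± 0.34, 0.0185). Ldha, the enzyme that makes lactate, stood at 502, 402 and 385 FPKM in K27M libraries and 281, 214 and 298 FPKM in WT-Tag libraries (0.70 ± 0.16, 0.0174). None of the 3 overlapped between groups, and K27M library 1 was the highest for each. Ndrg1 rose by 1.42, the hexokinase Hk2 by 1.27, the vascular peptide Adm by 1.03, the collagen hydroxylase subunit P4ha1 by 0.80 (0.0493; 0.0517 with the experiment as a block) and the glycolytic enzyme Pgk1 by 0.69. With the background covariate 0 of the 14 stayed called (median 0.69), and it was 2 without K27M library 1, 4 without K27M library 3 and 3 without WT-Tag library 2. Of the 8 genes that rose 7 had an upstream window in RefSeq, and 6 of these held ACGTG on either strand, as did 9 of all 13 list members with a window. Over all 32851 windows of that length 16.6% held it. That share is per window, whereas a gene was counted if any of its windows held the motif, so the 2 are not alike. The list was made of genes that HIF factors switch on, so its share of matches is no result about K27M. Some genes have more than 1 annotated start (Ldha has 2, of which 1 held the motif). A match is a description of letters and does not show that a factor binds there.

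Of 7 genes for inhibitors of cyclin-dependent kinases (CDK) 3 rose and 0 fell (median 0.59), and of 20 p53 target genes 7 rose and 0 fell (median 0.38). Of the CDK inhibitors 0 stayed called with the background covariate (limma adjusted p = 0.125 for Cdkn1a, 0.439 for Cdkn1b and 0.211 for Cdkn1c). Their log2 changes in that fit were 0.63, 0.37 and 1.28. Leaving out K27M library 1 or WT-Tag library 2 left 1 CDK inhibitor called. Cdkn1a, a member of both lists, stood at 63.3, 53.4 and 69.5 FPKM in K27M libraries and 42.7, 32.7 and 38.3 FPKM in WT-Tag libraries (log2 change 0.70 ± 0.13, adjusted p = 0.00737). Pmaip1, a pro-apoptotic BH3 protein, stood at 12.4, 11.8 and 14.1 FPKM in K27M libraries and 5.03, 2.32 and 2.72 FPKM in WT-Tag libraries (1.70 ± 0.24, 0.00247), and it was the p53 target still called with the background covariate. Plk2, a polo-like kinase, rose by 1.00, the death receptor Tnfrsf10b by 0.69, Phlda3 by 0.68, Mdm2, the ubiquitin ligase of p53, by 0.58 and Eda2r by 0.37. Cdkn1b rose by 0.78 ± 0.19 (0.0252). Cdkn2a, which is a Polycomb target in many cell types, overlapped between groups, at 2.91, 2.72 and 1.78 FPKM in K27M libraries and 2.71, 2.46 and 1.595 FPKM in WT-Tag libraries (0.09 ± 0.19, 0.770). None of 24 proliferation genes was called in either direction, while all 24 had a positive log2 change (median 0.53). Without WT-Tag library 1, 20 of the 24 were called higher, and with the background covariate 0 were called and the median was 0.02. Mki67, the usual marker of cycling cells, stood at 84.2, 98.1 and 63.5 FPKM in K27M libraries and 99.9, 79.4 and 61.8 FPKM in WT-Tag libraries.

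Genes of the Polycomb machinery changed little in size. Of 12 PRC2 genes 3 rose and 0 fell (median 0.36), and of 16 PRC1 genes 4 rose and 0 fell (median 0.23). Of all genes tested 8.42% were called higher and 5.13% lower. Bmi1, a PRC1 subunit, stood at 40.4, 39.8 and 31.3 FPKM in K27M libraries and 24.9, 22.2 and 23.2 FPKM in WT-Tag libraries (log2 change 0.64 ± 0.10, adjusted p = 0.00471). The PRC1 genes Cbx2, Rnf2 and Phc2 rose by 0.58, 0.45 and 0.44. The PRC2 genes that rose were Eed (0.41), the partner Mtf2 (0.36) and the partner listed as E130012A19Rik (0.59). Ezh2, the methyltransferase, stood at 16.9, 18.1 and 16.7 FPKM in K27M libraries and 16.4, 12.8 and 10.8 FPKM in WT-Tag libraries and did not pass (0.37 ± 0.14, 0.102). With the background covariate 0 genes of either list stayed called. Leaving out 1 library at a time gave 0 to 7 PRC2 and 2 to 9 PRC1 genes higher, the most without WT-Tag library 1. Of 7 genes for H3K27 demethylases and acetylation 0 were called, and of the 9 H3.3 genes and chaperones 1, the chaperone subunit Ubn1, rose (0.46 ± 0.12, 0.0294).

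**Figure D3:**
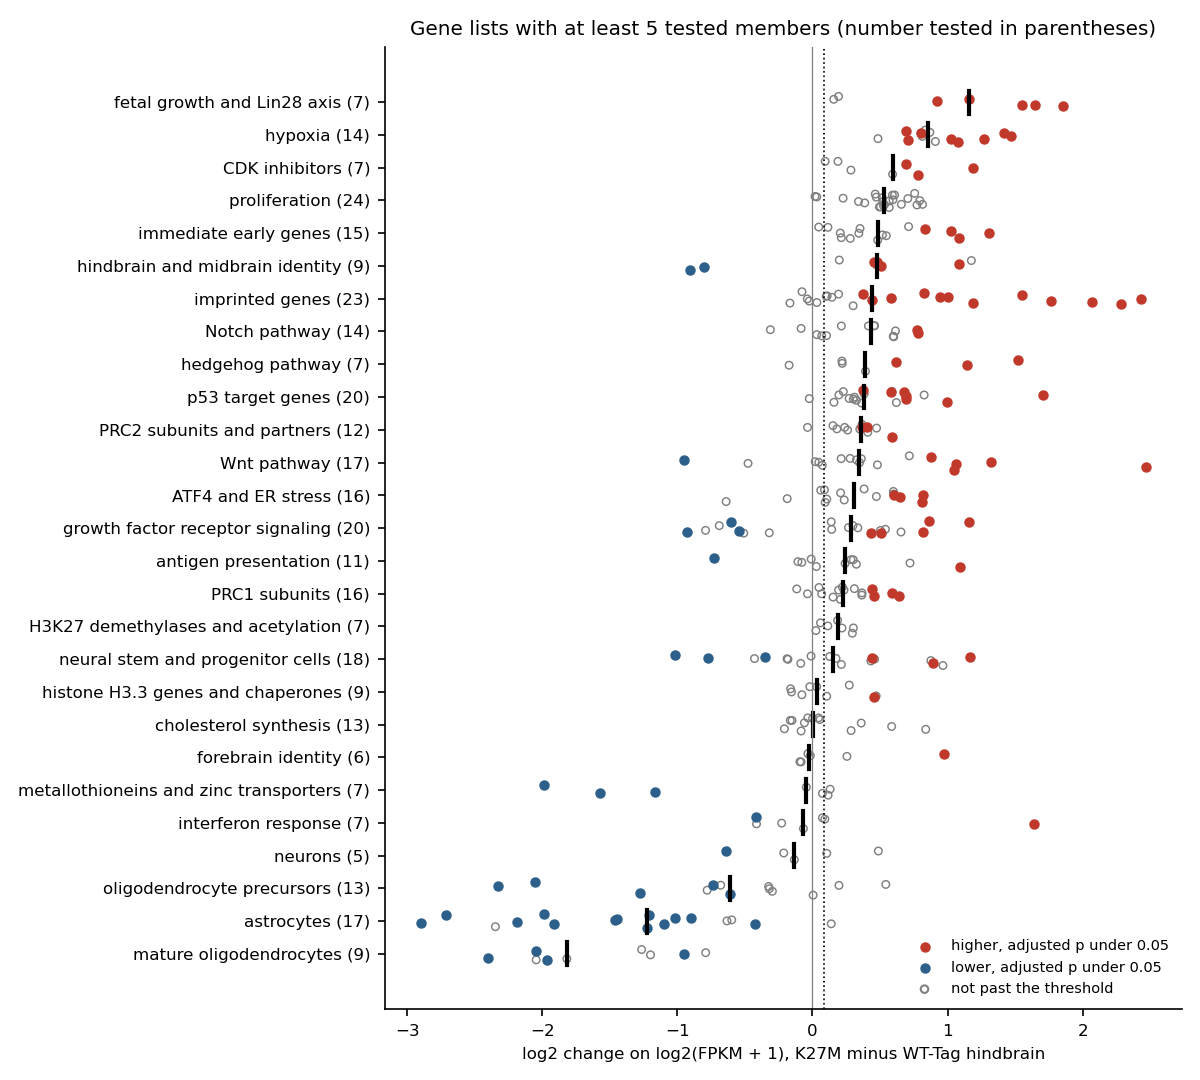
Log2 change of each tested member of the 27 gene lists with at least 5 tested members, K27M minus WT-Tag hindbrain on log2(FPKM + 1). Filled points passed the limma test, open points did not, black bars are list medians and the dotted line is the median of all genes (0.09). Astrocyte, oligodendrocyte precursor and mature oligodendrocyte genes lie mostly to the left, and the fetal growth and hypoxia lists lie to the right.

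Signaling genes were mixed. In the hedgehog pathway 3 of 7 rose: the co-receptors Cdon and Gas1 and the receptor Ptch1. Cdon stood at 4.89, 6.07 and 4.25 FPKM in K27M libraries and 1.31, 0.78 and 1.26 FPKM in WT-Tag libraries (log2 change 1.52 ± 0.15, adjusted p = 0.000381) and was called under all 18 alternatives, while Gas1 (1.15) and Ptch1 (0.62) were not called with the background covariate. In the Wnt pathway 5 of 17 rose and 1 fell. Beside Dkk3 these were the secreted modulators Sfrp5 (1.32) and Sfrp2 (0.88), the factor Tcf7l2 (1.07) and the ligand Wnt7a (1.046). The one that fell was Axin2, a feedback target of the pathway, at 2.17, 2.12 and 3.32 FPKM in K27M libraries and 4.01, 5.71 and 8.17 FPKM in WT-Tag libraries (−0.95 ± 0.26, 0.0371). Of 14 Notch genes the ligand Jag1 (0.77) and the modifier Mfng (0.78) rose, where 8.42% of all genes tested were called higher. Growth factor receptor signaling had 5 of 20 higher and 3 lower. Igf1r stood at 12.02, 10.4 and 18.1 FPKM in K27M libraries and 6.49, 5.60 and 9.55 FPKM in WT-Tag libraries (0.82 ± 0.20, 0.0238). Fgfr2 stood at 1.70, 2.45 and 3.65 FPKM in K27M libraries and 4.57, 6.05 and 6.61 FPKM in WT-Tag libraries (−0.93 ± 0.19, 0.0112). The others were Spry4 (1.16), Etv5 (0.86), Dusp4 (0.51) and Insr (0.44), which rose, and Etv4 (−0.61) and Ntrk2 (−0.55), which fell. The genes still called with the background covariate were Dkk3 in the Wnt list, 0 in the Notch list and Etv4 among the growth factor genes (Igf1r 0.317, Fgfr2 0.196). Leaving out 1 library at a time gave 1 to 4 hedgehog, 1 to 9 Wnt, 1 to 5 Notch and 0 to 9 growth factor genes higher, the most without WT-Tag library 1 in each list; for the growth factor genes it was 0 without K27M library 1 or WT-Tag library 2.

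Of 9 hindbrain and midbrain identity genes tested, 4 rose and 2 fell. En2 and Cnpy1, genes of the midbrain-hindbrain boundary, fell: En2 stood at 0.824, 0.501 and 0.531 FPKM in K27M libraries and 1.20, 2.22 and 2.87 FPKM in WT-Tag libraries (log2 change −0.90 ± 0.19, adjusted p = 0.0124). Cnpy1 stood at 1.17, 0.682 and 0.956 FPKM in K27M libraries and 1.21, 2.55 and 3.86 FPKM in WT-Tag libraries (−0.81 ± 0.23, 0.0443). K27M library 1 and WT-Tag library 1 were close for Cnpy1. The segment factor Egr2, also an immediate early gene, rose by 1.09 ± 0.27 (0.025), and the Iroquois factors Irx5, Irx2 and Irx1 rose by 0.51, 0.48 and 0.46 (0.0326, 0.0159 and 0.0494; Irx1 0.0513 with the experiment as a block). The head factor Otx1, on the forebrain list, stood at 1.86, 1.59 and 1.86 FPKM in K27M libraries and 1.15, 0.172 and 0.113 FPKM in WT-Tag libraries (0.97 ± 0.22, 0.0178). None of these 7 stayed called with the background covariate, and without WT-Tag library 2 none of the hindbrain and midbrain list was called.

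HOX genes lay below the filter on low values, and 0 of the 39 were tested. Their summed FPKM was 0.239, 0.722 and 0.235 in K27M libraries and 1.68, 7.69 and 19.1 in WT-Tag libraries, so the groups did not overlap and the WT-Tag libraries differed among themselves by more than the groups' nearest members. Hoxa2, an anterior HOX gene, stood at 0, 0.213 and 0.055 FPKM in K27M libraries and 0.642, 2.46 and 4.45 FPKM in WT-Tag libraries. Hoxb2 stood at 0.021, 0.104 and 0.03 FPKM in K27M libraries and 0.329, 1.33 and 1.49 FPKM in WT-Tag libraries. With no filter all 39 log2 changes were negative and 2 passed, Hoxa2 (−1.53, adjusted p = 0.0328) and Hoxb2 (−0.91, 0.0282), where 1.42% of 32641 entries were called lower. For 17 of the 39 all K27M values lay below all WT-Tag values, and for 0 above; of the 32641 unfiltered entries 9.43% lay below and 8.34% above, and of the 1734 background entries 3.58% below and 0.0577% above. These sets differ in level, and entries at 0 in libraries of both groups cannot separate the groups. Some of the 17 HOX genes were at 0 in all K27M libraries and near 0 in WT-Tag libraries. Hoxd10, for example, stood at 0.011, 0.01 and 0.017 FPKM in WT-Tag libraries. The background entries above 0 were also more numerous in WT-Tag libraries, in the order 1, 3 and 2 rather than the order 1, 2 and 3 of the HOX sums, and the part of background in the HOX values was not tested.

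**Figure D4:**
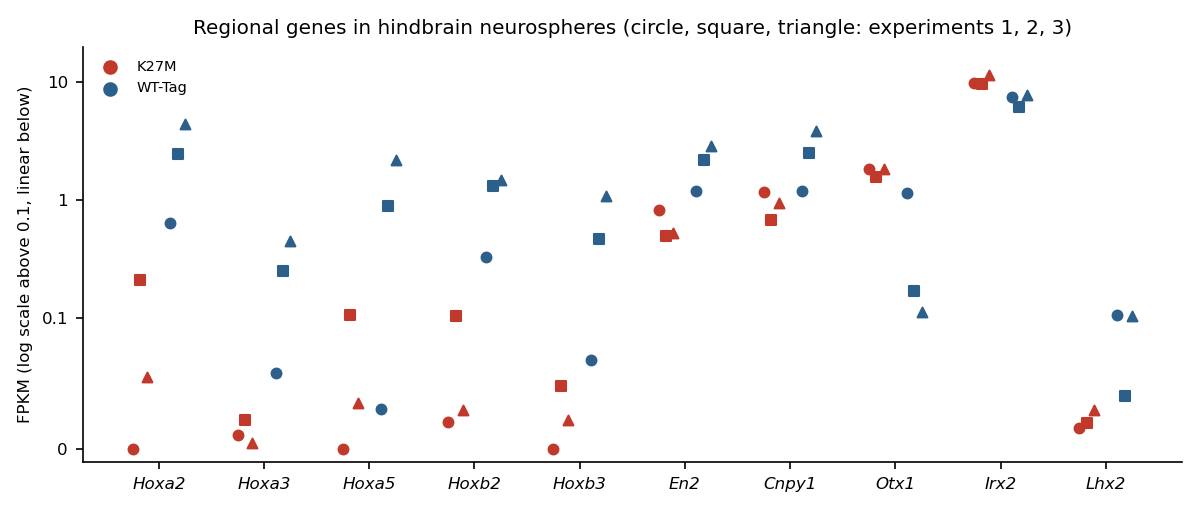
FPKM of 10 regional genes in the 6 hindbrain libraries (K27M left, WT-Tag right within each gene; logarithmic axis above 0.1 and linear below). Hoxa2, Hoxa3, Hoxb2 and Hoxb3 do not overlap between groups, while Hoxa5 does, and Lhx2 is near 0 in all 6 libraries.

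Calls among stress and immune genes stand beside 8.42% of all genes tested called higher and 5.13% called lower. Of 15 immediate early genes 4 rose, Atf3 (1.31), Egr2 (1.09), Jund (1.02) and Ier2 (0.84), and of 16 genes of ATF4 and ER stress 4 rose, Atf4 (0.82), Asns (0.81), Herpud1 (0.64) and Psat1 (0.60). Of either list 0 genes stayed called with the background covariate, and without K27M library 1 or WT-Tag library 2 it was also 0 of either; over all 6 libraries left out in turn, 0 to 5 immediate early genes and 0 to 4 of the ATF4 list were called higher. The antiviral tether Bst2 stood at 20.6, 13.9 and 18.4 FPKM in K27M libraries and 9.84, 3.56 and 3.19 FPKM in WT-Tag libraries (log2 change 1.64 ± 0.30, adjusted p = 0.00737), and of 7 interferon genes 1 rose and 1 fell. Of 11 antigen presentation genes H2-Ab1 rose by 1.10 ± 0.21 (0.00984) and the immunoproteasome subunit Psmb10 fell. Bst2 and H2-Ab1 lost their calls with the background covariate (0.178 and 0.159). Psmb10 stood at 8.90, 8.02 and 7.37 FPKM in K27M libraries and 14.1, 13.8 and 14.2 FPKM in WT-Tag libraries (−0.73 ± 0.10, 0.00247), a narrow spread in both groups, and was called under all 18 alternatives. Of 13 cholesterol synthesis genes 0 were called (smallest limma adjusted p 0.088, for Insig1).

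Set beside the forebrain cultures, the hindbrain changes mostly had the same sign. K27M against WT-Tag forebrain gave 47 called genes (0.356%), of which 41 were among the 1787 called in hindbrain. The sign matched in the forebrain for 1645 of the 1787 genes (92.1%), against 76.1% of all genes tested; the forebrain and hindbrain cultures share their letters, so they may share embryos. Genes called higher had a median log2 change of 0.61 in hindbrain and 0.27 in forebrain, and those called lower −0.64 in hindbrain and −0.27 in forebrain. The hindbrain median is of genes chosen by that same change. A test of the difference between regions passed for 5 genes (0.0379%), Lin28b, Dkk3, Slc38a4, Htr3a and Mtmr11, and 831 had an unadjusted p under 0.05. In the 29 brainstem tumors, which carry further alleles and are separate samples, the sign of the K27M change matched for 755 of the 1732 hindbrain genes tested there (43.6%), against 44.4% of all genes tested in both. Of the 13 genes called in tumors (0.0846% of 15360) 5 were called in hindbrain with the same sign: Asb4, Pbx3 and 2810030E01Rik higher and En2 and Cnpy1 lower in K27M. Pbx3, a HOX cofactor, stood at 6.39, 6.39 and 7.52 FPKM in K27M libraries and 4.37, 4.10 and 4.66 FPKM in WT-Tag libraries (log2 change 0.53 ± 0.09 in hindbrain and 0.78 ± 0.13 in tumors). It and 2810030E01Rik are named here because so few genes were called in both.

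**Figure D5:**
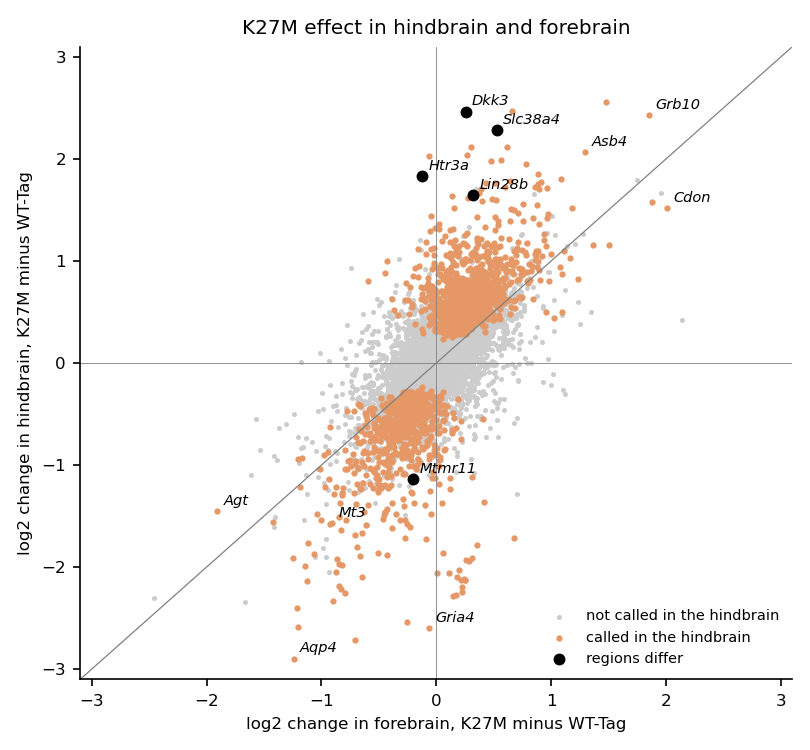
Log2 change by K27M in hindbrain (vertical) against forebrain (horizontal) for 13190 genes on log2(FPKM + 1), with genes called in hindbrain in orange, the 5 genes whose changes differ between regions in black and the line of equal change. Asb4 and Grb10 were called in both regions. Dkk3, Slc38a4 and Htr3a lie near the vertical axis, Slc38a4 with a forebrain change of 0.53 that was not called.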

How the data were processed

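RNA was measured in 41 libraries made, per the labels' protocols, with a strand-marking kit for total RNA from cells lysed in Trizol with ERCC spike-ins, which were not used here. CASAVA, TopHat2, STAR and build mm9 are named, without versions, per the submitters' processing notes. Counting tool, annotation and strand use were not given in the sources used here. Overlapping and near-identical genes are therefore uncertain. The authors deposited 1 table of FPKM values with 34591 entries, and 0 of its columns were left unmapped.

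Genes that reached 1 FPKM in 3 or more of the 12 neurosphere libraries were tested with limma 3.58.1 (R 4.3.3) on log2(FPKM + 1), with a pseudocount of 1 and a mean-variance trend, 12 libraries as 4 groups, 2-sided, with Benjamini-Hochberg adjustment over all genes tested and a threshold of 0.05. The procedure was tested on simulated data with independent libraries. These held no difference in background or sex and no pairing by experiment, so the simulation cannot speak to those features. Tumors were fitted alone (at least 9 libraries at 1 FPKM or more). For 1 gene alone, permuting 3 against 3 libraries gives no p smaller than 0.1. FPKM carries no counts, so precision rests on the spread between libraries within groups. That spread was pooled over the 4 neurosphere groups (8 residual degrees of freedom), so the forebrain libraries enter the p-values for hindbrain. Relative depth was read from the smallest steps of FPKM shared by pairs of libraries. Tables and figures were made with Python 3.11.15, pandas 2.3.3 and matplotlib 3.10.9.

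The samples, the 36 gene lists (594 members, 585 in the table, 346 tested) and the background families were chosen with earlier results of these data known. Named by rule were the 12 genes with the largest change in each direction among those called (unnamed gene models counted, not named), of each list every called member and up to 3 with the smallest p, up to 6 genes per direction that differed between regions, H3f3a, H3f3b, Xist and Y-linked genes. A few genes that this rule names are not reported here. Some other list members are given as level checks, and genes outside the rule were chosen after their values were seen. Alternatives were pseudocounts of 0.1 and 5, no filter, a filter of at least 5 FPKM, median ratio rescaling, quantile normalization, no trend, the experiment as a block, no experiment 3, each hindbrain library left out, the hindbrain libraries alone, and 2 background covariates (summed FPKM, and the number of entries above 0, the second chosen after seeing the data).

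The labels give an experiment number to each culture. Deviations from the group means correlated between same-numbered K27M and WT-Tag hindbrain libraries at 0.41, 0.15 and 0.44. Between libraries of different number the correlations ran from −0.34 to 0.09, so the pairing was weak for experiment 2. The main fit had no term for the experiment and left this pairing out. The experiment entered as a block in an alternative.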

Additional observations from a re-analysis of the deposited data

Results flagged for a closer look

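The test of the difference between the hindbrain and forebrain effects of K27M picked out 5 genes (limma, adjusted p = 0.0389 for each). Slc38a4 had a difference of 1.76 ± 0.24 on the log2 scale, with a change of 2.29 in hindbrain and 0.53 in forebrain, where its mean was 0.584 FPKM in K27M and 0.0987 FPKM in WT-Tag cultures. Lin28b differed by 1.33 ± 0.16, and its forebrain means were 0.275 FPKM in K27M and 0.018 FPKM in WT-Tag cultures. For Dkk3 the difference was 2.21 ± 0.29, with forebrain means of 0.648 FPKM in K27M and 0.375 FPKM in WT-Tag cultures. Htr3a, a serotonin-gated channel, stood at 5.77, 3.64 and 5.56 FPKM in K27M hindbrain libraries and 1.21, 0.411 and 0.448 FPKM in WT-Tag hindbrain libraries, and its difference was 1.96 ± 0.27. Mtmr11, a myotubularin relative, stood at 5.67, 5.14 and 5.12 FPKM in K27M hindbrain libraries and 11.7, 13.7 and 13.3 FPKM in WT-Tag hindbrain libraries, with a difference of −0.93 ± 0.12. With the experiment or the culture letter as a block, or with the background covariate, 0 genes passed this test.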

How the results depend on the processing

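The 1787 calls in hindbrain (1111 higher, 676 lower) became 134 (41 and 93) with the background covariate, 234 (91 and 143) with the covariate by number of entries, 286 (119 and 167) in the hindbrain libraries alone, 1045 (583 higher) with no filter and 100 (46 and 54) without experiment 3. Falls numbered 1030 with median ratio rescaling and 1089 with quantile normalization. Leaving out 1 hindbrain library at a time gave 569 to 4220 calls, 273 to 3083 higher and 267 to 1137 lower; in these fits a pair of libraries is assumed to vary like the other groups. The 5 genes that differed between regions became 0 with either covariate, the culture block, an FPKM of at least 5, a pseudocount of 0.1, the replicate block and without experiment 3, 2 with quantile normalization, and 8 with no filter or a pseudocount of 5, and 0 to 298 without 1 library (298 without WT-Tag library 1). With the replicate block, which follows the pairing by experiment, 2258 genes were called (1474 higher, 784 lower), and of the 124 named genes called only Irx1, Prom1 and P4ha1 lost their calls. Of these 124 genes, 18 were called under every alternative and 0 reversed under any. The causes of these shifts were not tested. Background entries differed between the genotypes in every hindbrain pair, and sex and genotype cannot be told apart in experiment 3.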

Other observations

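Among the genes called under every alternative run were several outside the lists, named here after their values were seen. Adamts3, a protease that processes procollagen and VEGFC, averaged 4.94 FPKM in K27M and 0.757 FPKM in WT-Tag libraries (log2 change 1.79 ± 0.17, adjusted p = 0.000369). Areg, a ligand of the EGF receptor, averaged 5.10 FPKM in K27M and 1.15 FPKM in WT-Tag libraries (1.503 ± 0.18, 0.00117), and Kdelr3, which retrieves proteins to the endoplasmic reticulum, 15.2 FPKM in K27M and 4.36 FPKM in WT-Tag libraries (1.58 ± 0.17, 0.000651). Of the 35 lower genes 3 are given: Cntn1, a neural adhesion protein, averaged 5.76 FPKM in K27M and 23.9 FPKM in WT-Tag libraries (−1.87 ± 0.21, 0.000786), Gabrg1, a GABA-A receptor subunit, 8.36 FPKM in K27M and 24.4 FPKM in WT-Tag libraries (−1.43 ± 0.12, 0.000106), and the cadherin Cdh10 2.35 FPKM in K27M and 7.77 FPKM in WT-Tag libraries (−1.38 ± 0.11, 7.11e-05).

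Unnamed gene models also stood among the largest falls, 9 of them before the 12 named genes were filled. Gm10800 stood at 2399, 3586 and 1804 FPKM in K27M libraries and 7348, 17747 and 9805 FPKM in WT-Tag libraries (log2 change −2.12 ± 0.38, adjusted p = 0.00718), the highest values in WT-Tag library 2. The 9 models had log2 changes between −2.29 and −2.10 in hindbrain and between 0.14 and 0.25 in forebrain. Each was highest in WT-Tag library 2, and the libraries of each group ranked in the same order for all 9. They may therefore not be 9 separate changes. None was called under all 18 alternatives, the range being 13 to 17.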
